A study of Mus musculus with 14 samples.

Results

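Mmp12, Pparg and Cd36 are 3 of the 14084 genes counted in RNA of sorted mouse microglia over a time course of focal ischemia. They were chosen by their counts in the day 21 and day 60 libraries, with higher counts at day 60 for all 3. That contrast is given here as a description without a test, as is every contrast with a day 21 or day 60 library. The mice were of strain C57BL/6, with an age of 8 to 10 weeks given alike for all groups, and the cells were sorted from cerebral cortex. That age cannot be the age at sampling for mice sampled 90 days after stroke. Age at sampling and time after stroke therefore cannot be told apart in comparisons between times. Stroke animals had a lasting ligation of the distal middle cerebral artery together with a 7 min closure of both common carotid arteries, and were sampled on day 1, 3, 7, 21, 60 or 90. Sham animals had only a lesion of the skull surface, and their sampling day is not given in the sources used here. Each of the 7 groups had 2 libraries, 14 in all, with the sort gate and any pooling of animals not given. No label states separate animals for the 2 libraries of a group, and p-values therefore reflect library-to-library spread that may be technical.

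Mmp12 encodes macrophage elastase, a secreted metalloproteinase that cleaves elastin and other matrix proteins and is made mainly by macrophages. Pparg encodes the nuclear receptor PPAR gamma, which binds fatty acids and their derivatives, pairs with retinoid X receptors on DNA and switches on genes of lipid uptake, storage and export. Cd36 encodes a class B scavenger receptor that takes up fatty acids, oxidised lipoprotein and dying cells, and it is a textbook PPAR gamma target in macrophages. In brain phagocytes PPAR gamma and CD36 are known for the clearance of debris and of blood after injury.

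The sequences upstream of the start sites are shown because these genes were picked for moving together and PPAR gamma acts on DNA through the hexamer AGGTCA. They are the 250 bases before each annotated start, taken by gene symbol from RefSeq on build GRCm38.p6, and RefSeq lists 2 starts for Mmp12, 3 for Pparg and 1 for Cd36. All 3 symbols matched, and the window at start site 3 of Pparg, which held no match, is not printed. Matches are in capitals on either strand of AGGTCA, of the DR1 element, which is a tandem repeat of that hexamer with 1 base between, of the AP-1 element TGANTCA, and of GAGGAAGT, an Ets core bound by the myeloid factor PU.1. A DR1 match would also hold AGGTCA.
Mmp12, start site 1, chr9:7344147-7344396, plus strand: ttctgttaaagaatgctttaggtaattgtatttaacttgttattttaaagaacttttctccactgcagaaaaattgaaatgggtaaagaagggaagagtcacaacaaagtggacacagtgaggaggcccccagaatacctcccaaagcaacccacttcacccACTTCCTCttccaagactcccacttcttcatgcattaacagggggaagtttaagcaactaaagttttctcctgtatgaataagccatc
Mmp12, start site 2, chr9:7347124-7347373, plus strand: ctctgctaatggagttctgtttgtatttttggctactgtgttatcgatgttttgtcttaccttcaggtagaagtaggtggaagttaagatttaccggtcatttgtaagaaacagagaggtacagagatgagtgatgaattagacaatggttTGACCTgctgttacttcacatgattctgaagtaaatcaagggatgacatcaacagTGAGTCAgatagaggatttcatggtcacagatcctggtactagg
Pparg, start site 1, chr6:115360894-115361143, plus strand: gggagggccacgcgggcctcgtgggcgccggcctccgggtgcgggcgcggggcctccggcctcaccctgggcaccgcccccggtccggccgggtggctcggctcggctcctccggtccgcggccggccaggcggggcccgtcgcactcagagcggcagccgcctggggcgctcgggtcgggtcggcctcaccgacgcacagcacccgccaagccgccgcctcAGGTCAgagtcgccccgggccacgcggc
Pparg, start site 2, chr6:115362099-115362348, plus strand: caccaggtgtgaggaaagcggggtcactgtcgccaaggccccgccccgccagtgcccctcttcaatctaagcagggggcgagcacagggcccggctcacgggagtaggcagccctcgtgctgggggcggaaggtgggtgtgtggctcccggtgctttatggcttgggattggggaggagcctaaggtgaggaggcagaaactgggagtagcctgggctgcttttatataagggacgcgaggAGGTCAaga
Cd36, start site 1, chr5:17835897-17836146, minus strand: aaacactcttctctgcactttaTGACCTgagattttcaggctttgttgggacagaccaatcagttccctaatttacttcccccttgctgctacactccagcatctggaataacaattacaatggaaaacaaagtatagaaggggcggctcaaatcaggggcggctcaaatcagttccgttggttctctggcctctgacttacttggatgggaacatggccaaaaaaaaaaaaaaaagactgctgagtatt
The hexamer AGGTCA, read on either strand as AGGTCA or TGACCT, lay 99 to 94 bases upstream of start site 2 of Mmp12. It lay 28 to 23 bases upstream of start site 1 and 9 to 4 bases upstream of start site 2 of Pparg, and 228 to 223 bases upstream of the Cd36 start. Of all 32851 windows of this length, 14% held it. The AP-1 element, found in 6.75% of windows, lay 44 to 38 bases upstream of start site 2 of Mmp12, and the Ets core, found in 2.44%, lay 88 to 81 bases upstream of its start site 1. DR1 was in none of the 6 windows of the 3 genes and in 0.0335% of all windows. A match describes these letters and says nothing of binding.

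Library totals ranged from 15254983 to 28758420 counts in the replicate 1 libraries and from 100625099 to 191692779 in the replicate 2 libraries, so replicate number and depth cannot be told apart. The sham libraries stood apart from their label. The microglial marker Tmem119 had 18.3 and 2.08 CPM (counts scaled to a common library total) in sham, and between 41.7 and 386 CPM in the 12 stroke libraries. Other microglial markers overlapped between sham and stroke. P2ry13 had 140.7 and 56.8 CPM in sham and between 19.9 and 191.6 CPM after stroke. Cx3cr1 had 424.1 and 124.8 CPM in sham and between 53.8 and 808.1 CPM after stroke. Csf1r had 1823.6 and 1032.4 CPM in sham and between 634.9 and 6871.3 CPM after stroke. The 12 microglial markers summed to 2675 and 1535 CPM in sham and to between 2649 and 28544.5 CPM after stroke. The 11 neutrophil markers counted summed to 17618 and 30188 CPM in sham, and to between 243 and 6521 CPM after stroke. The 4 erythroid markers counted summed to 233 and 249 CPM in sham, and to 5.24 CPM or less after stroke. Fewer cells of a type and less RNA per cell cannot be told apart in such bulk libraries. The comparison of day 90 with day 7 uses no sham library, and it is given beside each comparison with sham.

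**Figure D1:**
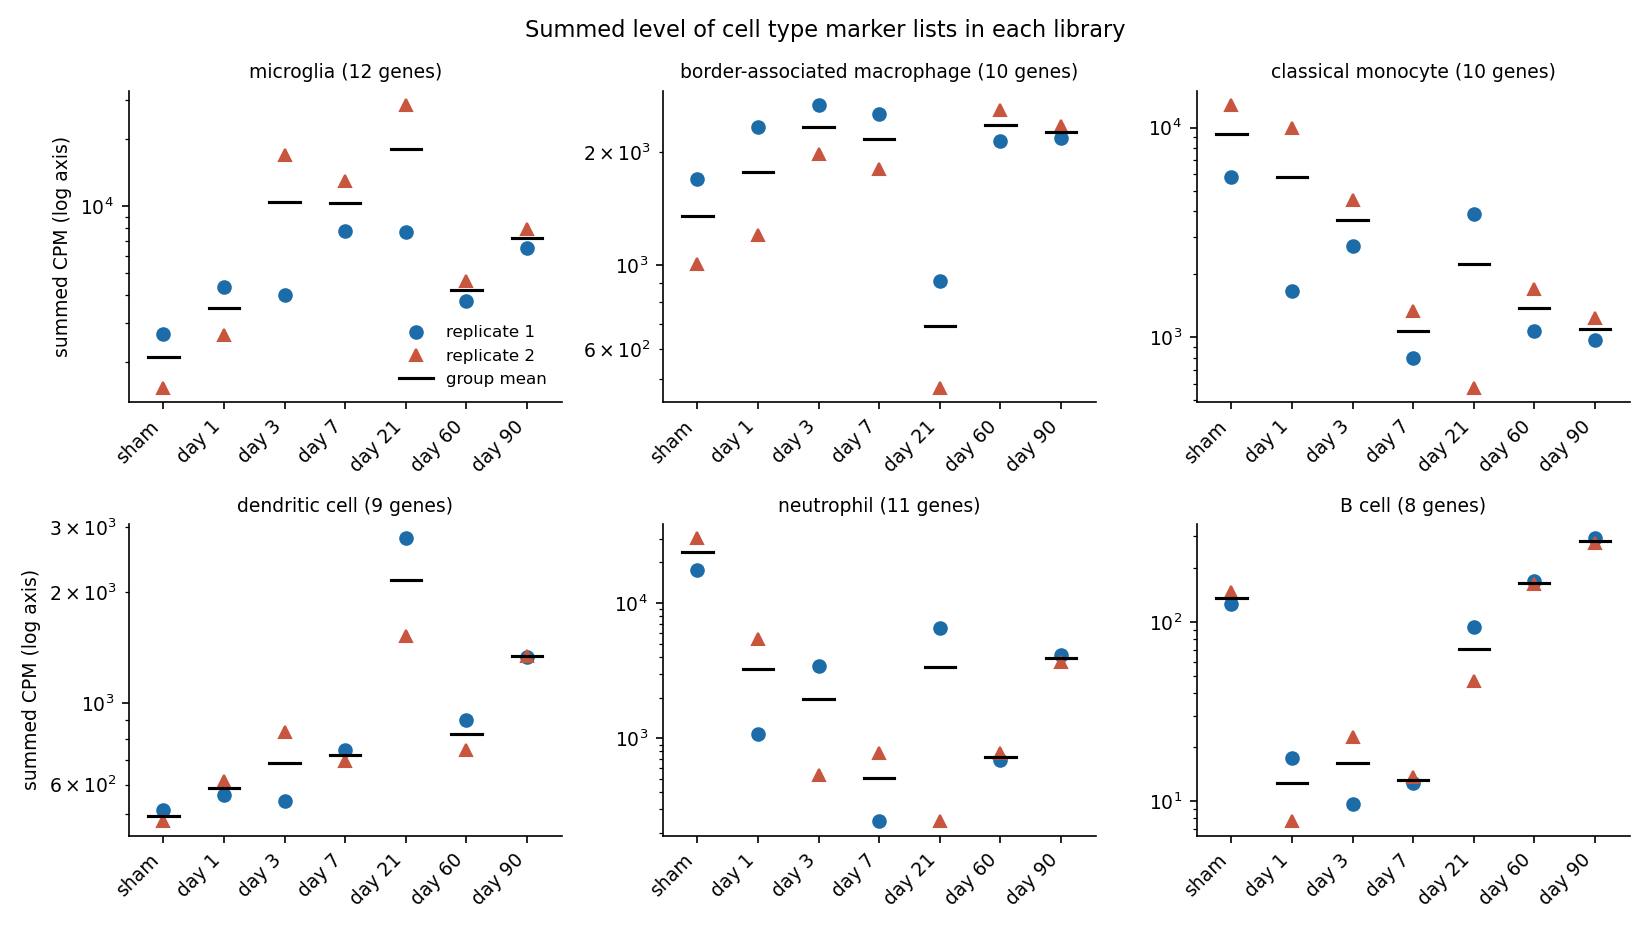
Summed level, in CPM of the total counts on log axes, of 6 lists of cell type markers in each of the 14 libraries, with circles for replicate 1, triangles for replicate 2 and bars for group means. The sham libraries, at 2675 and 1535 CPM, and day 1 replicate 2, at 2649 CPM, are the 3 lowest in the microglial list, and the sham libraries are highest in the neutrophil list, at 17618 and 30188 CPM.

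Mmp12 stood at 3 plateaus over the time course, in CPM scaled by TMM factors. Single-gene levels from here on are in this unit. Members of the marker lists given beside their sums are the exception, in CPM of the total counts. The sham libraries had 0.182 and 0.464 CPM, from 3 and 39 counts. Day 1 had 27.5 and 65.9 CPM, day 3 had 31.2 and 24.4, day 7 had 27.3 and 65.2, and day 21 had 21.6 and 61.9. Day 60 had 2316 and 3109.7 CPM, and day 90 had 2256 and 2898. The 4 groups from day 1 to day 21 overlap one another, as do day 60 and day 90, and the 3 plateaus do not overlap. Mmp12 was counted 60551 and 385641 times at day 60 and 81946 and 578633 times at day 90. In the GENCODE vM21 annotation, not known to be the one used for the counts, its exons overlap those of Mmp1b, strand left aside. Mmp1b is not analysed here, and how reads there were counted is not known. In the same annotation 3% of the 50-base words of Mmp12 occur in transcripts of other genes. No such word was shared by Pparg or Cd36.

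Pparg was lowest at day 21 and highest at day 60. Sham had 29.1 and 35.5 CPM, day 1 had 18.8 and 10.7, day 3 had 15.2 and 10.4, and day 7 had 24.2 and 22.6. Day 21 had 8.59 and 4.90 CPM, day 60 had 126 and 143, and day 90 had 102 and 94.5. Days 1 and 3 overlap, the other groups stand apart from one another, and both late groups lie above every earlier library.

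Cd36 varied in level at the early times and was lowest at day 21. Sham had 85.8 and 143 CPM, day 1 had 321 and 454, day 3 had 306 and 114, and day 7 had 808 and 467. Day 21 had 15.1 and 27.5 CPM, below every other library, while day 60 had 623 and 683 and day 90 had 1006 and 1102. Day 3 overlaps sham, and day 60 lies within the range of day 7. Only day 90 lies above all other libraries.

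**Figure D2:**
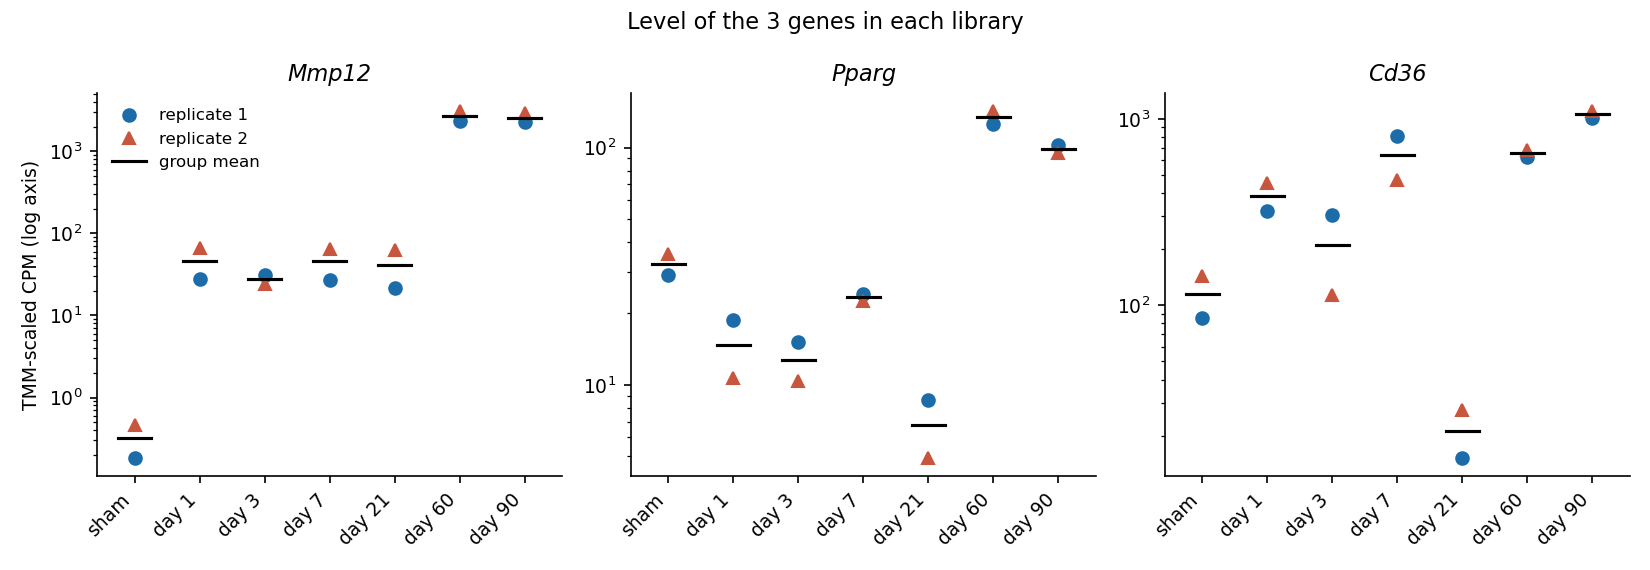
TMM-scaled CPM of Mmp12, Pparg and Cd36 on log axes in each library of sham and the 6 times after stroke, with circles for replicate 1, triangles for replicate 2 and bars for group means. Mmp12 shows 3 plateaus, with means of 0.323 CPM in sham and 2577 CPM at day 90, while Pparg and Cd36 are lowest at day 21, at means of 6.75 and 21.3 CPM.

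The contrast that chose the genes differed in size and in what preceded it. The log2 fold change of day 60 against day 21 was 6.02 for Mmp12, 4.94 for Cd36 and 4.32 for Pparg, and 100, 159 and 203 of the 13861 genes tested had a larger one. Within the libraries numbered 1 and 2 the log2 differences were 6.74 and 5.65 for Mmp12, 5.36 and 4.63 for Cd36, and 3.87 and 4.86 for Pparg. Day 21 against day 7 gave log2 fold changes of -0.15 for Mmp12, -4.90 for Cd36 and -1.80 for Pparg, and 8210, 13743 and 13193 genes had a larger one. Against sham, day 60 stood at 12.93 for Mmp12, 2.05 for Pparg and 2.51 for Cd36 on the log2 scale. Day 21 stood at 6.91 for Mmp12, -2.26 for Pparg and -2.42 for Cd36. Day 90 against day 60 gave log2 fold changes of -0.07 for Mmp12, -0.45 for Pparg and 0.69 for Cd36, the last 0.69 in each replicate number.

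Marker lists of other cells also differed between day 60 and day 21, and their part in these values was not tested. The microglial markers summed to 3784 and 4623 CPM at day 60 and to 7651 and 28544.5 CPM at day 21. Border-associated macrophage markers are 10 genes of the macrophages at vessels and meninges. They summed to 2147 and 2583 CPM at day 60 and to 909 and 473 CPM at day 21. Most of the day 60 sum was Ms4a7, at 1250 and 1747 CPM, and Clec12a, at 514 and 480 CPM. Mrc1, Pf4, Cbr2 and Folr2 were also higher in both day 60 libraries. Cd163 ran the other way, with 2.84 and 1.47 CPM at day 60 and 9.56 and 2.99 CPM at day 21. F13a1, Stab1 and Lyve1 overlapped between the times. F13a1 had 73.2 and 40.1 CPM at day 60 and 574 and 34.3 CPM at day 21. Stab1 had 96.15 and 86.47 CPM at day 60 and 86.96 and 222.8 CPM at day 21. B cell markers summed to 168 and 163 CPM at day 60 and to 93.6 and 46.8 CPM at day 21. Dendritic cell markers summed to 896 and 745 CPM at day 60 and to 2801 and 1520.0 CPM at day 21. The day 21 libraries also differed from each other, with neutrophil markers at 6521 and 243 CPM.

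The comparison of day 90 with sham asked how the genes stood in the latest group. The stated choice used the day 21 and day 60 libraries, but it was made with earlier results of these data known. The day 90 calls may therefore not be independent of it. All 3 genes rose against sham. Mmp12 averaged 2577 ± 453 CPM at day 90 and 0.323 ± 0.199 CPM in sham (SD, n = 2 each), a log2 fold change of 12.86 ± 1.07 (± 1 SE, edgeR quasi-likelihood adjusted p = 0.000218). Cd36 averaged 1054 ± 68.1 CPM at day 90 and 114.5 ± 40.6 CPM in sham, a log2 fold change of 3.20 ± 0.60 (edgeR adjusted p = 0.01). Pparg averaged 98.2 ± 5.29 CPM at day 90 and 32.3 ± 4.50 CPM in sham, a log2 fold change of 1.60 ± 0.43 (edgeR adjusted p = 0.0426). Among the 13861 genes tested 5.12% were called higher and 2.73% lower at day 90 than in sham, at an adjusted p under 0.05. For each of the 3 genes both day 90 libraries lay above both sham libraries, as for 36.4% of all genes. Within the libraries numbered 1 and 2 the log2 differences were 13.41 and 12.53 for Mmp12, 3.55 and 2.94 for Cd36, and 1.81 and 1.41 for Pparg.

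The Mmp12 call at day 90 held without any 1 of the 14 libraries, with adjusted p between 0.000164 and 0.00593. The Cd36 call was lost without sham replicate 1 (adjusted p = 0.0838) or sham replicate 2 (0.0625). The Pparg call was lost in 8 of the 14 fits without 1 library, namely either library of sham, day 7, day 60 or day 90, with adjusted p between 0.0641 and 0.191. It was also lost when libraries were scaled by 12 genes shared by mononuclear phagocytes in place of TMM factors (log2 fold change 1.43, adjusted p = 0.224). Of all genes called at day 90, 65.2% were higher with TMM factors, 81.2% with total counts only and 83.1% with the phagocyte scaling. Over all genes the median log2 fold change shifted by 0.274 with total counts and by -0.195 with the phagocyte list.

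Markers that differ between day 90 and sham stand beside these changes. Of 12 microglial markers 7 rose and none fell, with sums of 6479 and 7875 CPM at day 90 and 2675 and 1535 CPM in sham. Of 10 border-associated macrophage markers 4 rose, with sums of 2186 and 2342 CPM at day 90 and 1696 and 1012 CPM in sham. The members did not move together. Ms4a7 had 803 and 980 CPM at day 90 and 3.28 and 8.15 CPM in sham. F13a1 had 212.5 and 166 CPM at day 90 and 1411 and 654 CPM in sham. Platelets and endothelial cells also make CD36. Of 8 platelet markers 2 fell and none rose, with sums of 4.49 and 4.88 CPM at day 90 and 87.6 and 74.0 CPM in sham, and Gp6 was at 0 at day 90. All 8 were lower at an unadjusted edgeR p under 0.05. The share of all genes at that threshold is not given, so counts at it, here and below, stand without a background. Of 11 endothelial markers 1 rose. Their sums, 121 and 159 CPM at day 90 and 301 and 1648 CPM in sham, rested on Slc2a1, a glucose transporter gene, and on Ly6c1. Ly6c1 had 1.495 and 62.1 CPM at day 90 and 0.0656 and 1460.7 CPM in sham. It split by replicate number in all 7 groups, with 0.0656 to 4.53 CPM in replicate 1 and 62.1 to 1460.7 CPM in replicate 2. Members such as Kdr, a vascular growth factor receptor, ran the other way from the sums, with 3.90 and 3.83 CPM at day 90 and 0.197 and 0.0994 CPM in sham. Classical monocyte markers summed to 967 and 1237 CPM at day 90 and 5844 and 12870 CPM in sham, with 2 of 10 lower. At an unadjusted edgeR p under 0.05, 7 were lower and none higher. Of 10 T and NK cell markers 3 rose and 1 fell, with sums of 175 and 176 CPM at day 90 and 43.3 and 66.0 CPM in sham. Of 9 dendritic cell markers none was called by edgeR, 2 higher at an unadjusted p under 0.05, with sums of 1335 and 1342 CPM at day 90 and 511 and 476 CPM in sham. Of 11 neutrophil markers 1 fell and none rose, with sums of 4150 and 3662 CPM at day 90 and 17618 and 30188 CPM in sham. At an unadjusted edgeR p under 0.05, 2 were higher and 5 lower. Of 4 erythroid markers 3 fell, with sums of 0.278 and 0.256 CPM at day 90 and 233 and 249 CPM in sham. Of 8 B cell markers none was called, with sums of 293 and 274 CPM at day 90 and 126 and 147 CPM in sham. The part of these lists in the values of the 3 genes was not tested.

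The comparison of day 90 with day 7 set the latest group against the last early one, without sham. Age at sampling cannot be told apart from time in it. Mmp12 rose, with 2577 ± 453 CPM at day 90 and 46.2 ± 26.8 CPM at day 7 (SD, n = 2 each), a log2 fold change of 5.80 ± 0.80 (edgeR adjusted p = 0.0186). It was 1 of 10 genes called higher, 0.0721% of the 13861 tested, and 1 gene, 0.00721%, was called lower. Pparg averaged 98.2 ± 5.29 CPM at day 90 and 23.4 ± 1.13 CPM at day 7, a log2 fold change of 2.07 ± 0.44 that missed the threshold (edgeR adjusted p = 0.179, unadjusted p = 0.000487). DESeq2 called it, with an adjusted p of 0.00104. Cd36 averaged 1054 ± 68.1 CPM at day 90 and 638 ± 241 CPM at day 7, a log2 fold change of 0.73 ± 0.55 that was not called (edgeR adjusted p = 1). For each of the 3 genes both day 90 libraries lay above both day 7 libraries, as for 25% of all genes.

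Within the libraries numbered 1 and 2 the log2 differences between day 90 and day 7 were 6.37 and 5.47 for Mmp12, 2.07 and 2.06 for Pparg, and 0.32 and 1.24 for Cd36. The Mmp12 call was lost without either day 7 library (adjusted p = 0.426 without replicate 1 and 0.185 without replicate 2) or either day 90 library (0.0588 and 0.0805). With both sham libraries left out of the fit, an alternative chosen after their marker levels were seen, it stood (adjusted p = 0.0273). With the mononuclear phagocyte scaling it did not pass (log2 fold change 5.74, adjusted p = 0.0872), and no gene was then called. Of 12 microglial markers none was called by edgeR, 1 lower at an unadjusted p under 0.05, with sums of 6479 and 7875 CPM at day 90 and 7753 and 12991 CPM at day 7. Of 10 border-associated macrophage markers 1 rose, with sums of 2186 and 2342 CPM at day 90 and 2527 and 1809 CPM at day 7. Of 8 B cell markers 3 rose, with sums of 293 and 274 CPM at day 90 and 12.7 and 13.6 CPM at day 7, where Pax5 and Vpreb3 were at 0. Of 9 dendritic cell markers none was called, 1 higher at an unadjusted p under 0.05, with sums of 1335 and 1342 CPM at day 90 and 744 and 696 CPM at day 7. Of 10 T and NK cell markers none was called, 6 higher at an unadjusted p under 0.05, with sums of 175 and 176 CPM at day 90 and 23.4 and 40.6 CPM at day 7. Of 11 neutrophil markers none was called, 4 higher at an unadjusted p under 0.05, and they summed to 4150 and 3662 CPM at day 90 and 245 and 782 CPM at day 7. The part of these lists in the Mmp12 value was not tested.

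In the early phase the 3 genes parted. Mmp12 rose at day 1 (log2 fold change 7.07 ± 0.86, edgeR adjusted p = 0.00186), day 3 (6.32 ± 0.84, adjusted p = 0.00201) and day 7 (7.06 ± 0.86, adjusted p = 0.00153) against sham. The shares of all genes called higher were 3.18% at day 1, 5.2% at day 3 and 7% at day 7, and of those called lower 1.37%, 3.07% and 5.63%. Of 10 border-associated macrophage markers 6 rose at day 1, 6 at day 3 and 3 at day 7, and of 12 microglial markers 3, 7 and 8, with none of either list lower. The macrophage list summed to 2337 and 1206 CPM at day 1, 2675 and 1980.4 at day 3 and 2527 and 1809 at day 7. In sham it summed to 1696 and 1012 CPM, of which F13a1 made up 1411 and 654 CPM. The part of these lists in the early values was not tested. Cd36 rose at day 7 (2.48 ± 0.58, edgeR adjusted p = 0.0191), with 638 ± 241 CPM at day 7 and 114.5 ± 40.6 CPM in sham (SD, n = 2 each). Its values of 1.76 ± 0.56 at day 1 (adjusted p = 0.0994) and 0.87 ± 0.55 at day 3 (adjusted p = 0.341) were not called. At day 3 the 2 replicate numbers gave log2 differences of 1.83 and -0.33, and the fitted value was -0.01 without day 3 replicate 1.

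By edgeR with group as the only term, Pparg was not called at any early time. Its log2 fold changes against sham were -1.13 ± 0.43 at day 1 (edgeR adjusted p = 0.149), -1.34 ± 0.43 at day 3 (adjusted p = 0.0754) and -0.46 ± 0.42 at day 7 (adjusted p = 0.504). Both libraries of each of these times lay below both sham libraries, as for 23% of all genes at day 1, 24.5% at day 3 and 27.6% at day 7. At day 3 DESeq2 called Pparg lower (adjusted p = 0.0159), as did limma-voom (0.0471). So did edgeR with replicate number as a block and edgeR without day 1 replicate 2. The Cd36 call at day 7 was lost without sham replicate 1 (adjusted p = 0.128), sham replicate 2 (0.0675) or day 7 replicate 1 (0.12). The share of higher genes among those called was 69.9% at day 1, 62.9% at day 3 and 55.4% at day 7, 78.5%, 78.2% and 65.4% with total counts only, and 84.6%, 80.4% and 77.1% with the phagocyte scaling.

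**Figure D3:**
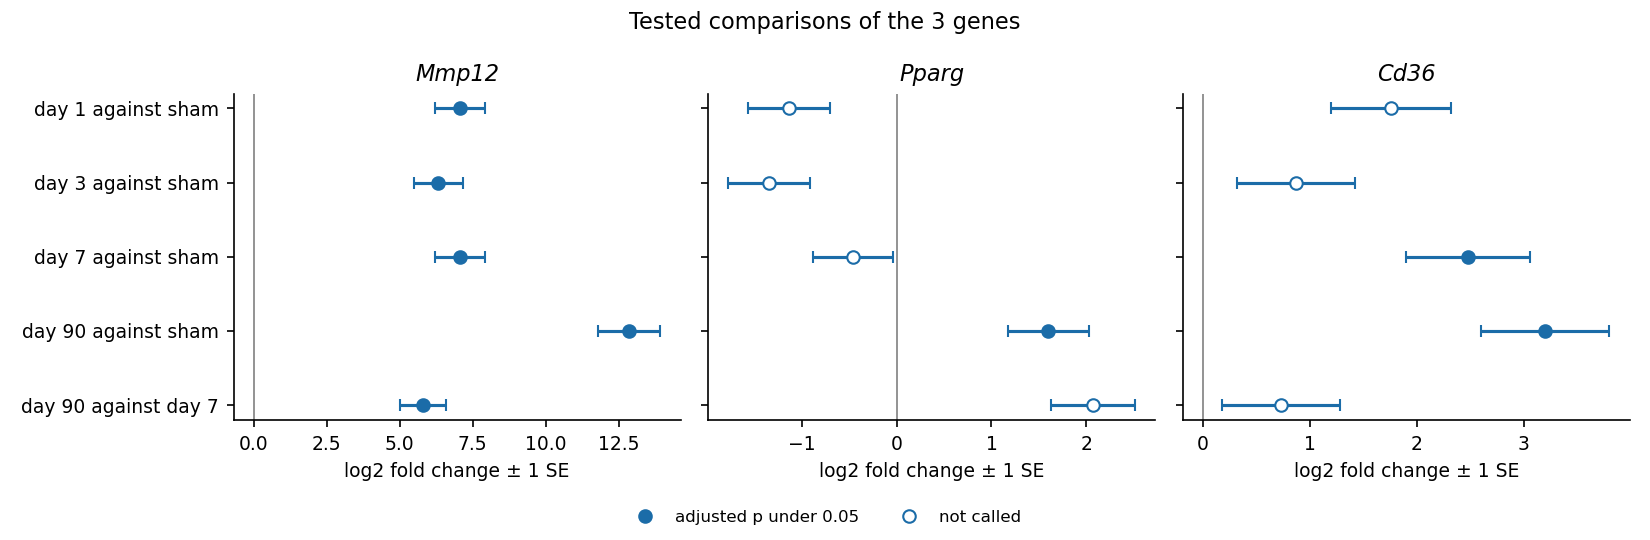
Log2 fold change with ± 1 SE of Mmp12, Pparg and Cd36 in the 5 comparisons tested, filled where edgeR's adjusted p was under 0.05. Mmp12 is filled in all 5, Cd36 in day 7 and day 90 against sham, and Pparg in day 90 against sham alone.

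Counts of the 3 genes were also taken per 1000 counts of 12 genes that mononuclear phagocytes share, such as Csf1r, Aif1 and Tyrobp. These 12 did not move together between sham and stroke. Ptprc had 2520 and 2846 CPM in sham and 218 to 848 CPM after stroke, in CPM of the total counts. Cd68 had 479 and 800 CPM in sham and 1179 to 5644 CPM after stroke. How far this unit follows the macrophage content of a library, sham above all, was not tested. Mmp12 had 76.2 and 68.2 of these units at day 60 and 133.6 and 129 at day 90, against 0.893 to 4.50 in the 8 libraries of days 1 to 21 and 0.0132 and 0.0222 in sham. Pparg had 4.13 and 3.13 at day 60 and 6.04 and 4.196 at day 90, against 0.161 to 1.65 in the libraries of days 1 to 21 and 2.11 and 1.70 in sham. Cd36 had 20.5 and 15.0 at day 60 and 59.6 and 49.0 at day 90, against 55.0 and 22.0 at day 7, 1.07 and 0.903 at day 21 and 6.21 and 6.85 in sham. On this scale Mmp12 and Pparg lay above all earlier libraries at days 60 and 90, and Cd36 at day 60 lay below both day 7 libraries. Cd36 had 10.4 and 31.0 at day 1 and 12.8 and 5.53 at day 3, so day 60 lay within the range of day 1. Its day 90 values overlapped those of day 7, unlike in TMM-scaled CPM.

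**Figure D4:**
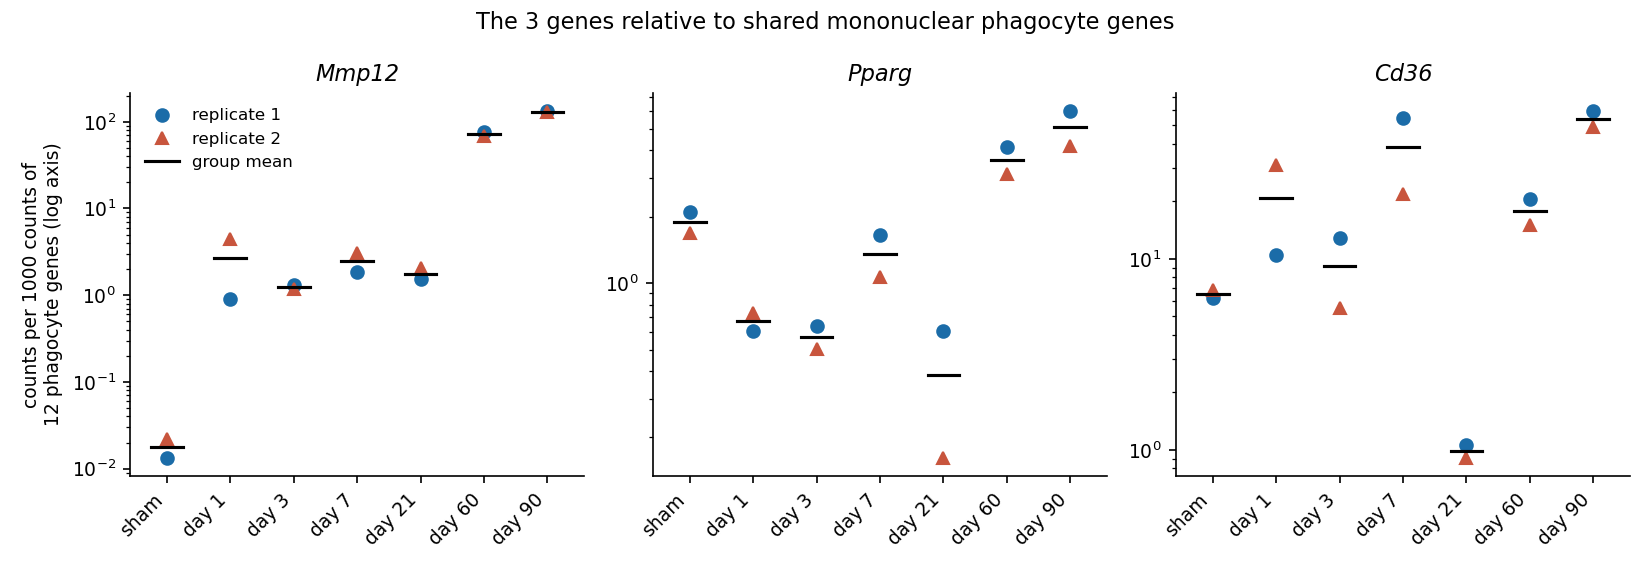
Counts of Mmp12, Pparg and Cd36 per 1000 summed counts of 12 shared mononuclear phagocyte genes, on log axes, in each library, with circles for replicate 1, triangles for replicate 2 and bars for group means. Mmp12 reaches 133.6 and 129 at day 90, and Cd36 is lowest at day 21, at 1.07 and 0.903.

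Of 20 receptors and coregulators 19 were counted and tested, and 2 rose against sham, Pparg itself and Nr1h3, which encodes the oxysterol receptor LXR alpha. Over all genes 5.12% were called higher and 2.73% lower, shares that also stand beside the other lists at day 90. DESeq2, which called 2616 of the 13861 genes in either direction, called 3 of the 19 higher and 3 lower. Limma-voom called 2 and 2, and the phagocyte scaling left 1 higher. The median log2 fold change of the 19 was -0.42, beside 0.11 over all genes. Nr1h3 had 82.5 and 103 CPM at day 90 and 4.43 and 7.10 CPM in sham, with no overlap (log2 fold change 4.0 ± 0.70, edgeR adjusted p = 0.00744). Against day 7, with 36.0 and 26.5 CPM, its log2 fold change of 1.57 ± 0.63 was not called (adjusted p = 0.749). Rxra, the retinoid X receptor partner, had 38.6 and 25.7 CPM at day 90 and 45.8 and 10.54 CPM in sham. Ppard, a related receptor, had 0.881 and 0.801 CPM at day 90 and 5.03 and 2.21 CPM in sham, and Ppargc1b, a coactivator, had 3.66 and 3.77 CPM at day 90 and 1.39 and 0.297 CPM in sham. None of these 3 genes was called (edgeR adjusted p between 0.132 and 0.889).

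Among PPAR target genes of lipid handling 4 of the 23 tested rose at day 90 against sham and none fell, and 3 of these 4 were genes other than Cd36. Their median log2 fold change was 1.71, and 1.61 without Cd36. Lpl, lipoprotein lipase, had 4356 and 5039 CPM at day 90 and 104 and 126 CPM in sham (5.35 ± 0.80, edgeR adjusted p = 0.0045). Abca1, a cholesterol exporter, had 249 and 215 CPM at day 90 and 11.5 and 4.12 CPM in sham (4.90 ± 0.64, adjusted p = 0.00209). Pltp, phospholipid transfer protein, had 1323 and 2977 CPM at day 90 and 57.8 and 146 CPM in sham (4.40 ± 0.99, adjusted p = 0.0219). These levels do not overlap between the groups.

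Other targets were not called at day 90 by edgeR with TMM factors, while DESeq2 called 8 of the 23 higher. Over all 13861 genes DESeq2 called 2616 in either direction. Fabp4, a fatty acid binding protein, had 48.3 and 67.7 CPM at day 90, 8.43 and 10.1 CPM at day 7 and 4.55 and 13.4 CPM in sham, with log2 fold changes of 2.65 ± 1.04 against day 7 (edgeR adjusted p = 0.736) and 2.68 ± 1.04 against sham (0.131). At day 60 it had 121 and 210 CPM, the highest of any group. Fabp5, a relative, had 200 and 531 CPM at day 90 and 20.4 and 56.4 CPM in sham. The lipid droplet gene Plin2 had 600 and 608 CPM at day 90, 2110 and 1456 CPM at day 7 and 156 and 204.5 CPM in sham (1.75 ± 0.50 against sham, adjusted p = 0.0527), and it was called in 6 of 14 fits without 1 library and 6 of 11 other settings. Angptl4, an inhibitor of lipoprotein lipase, had 9.89 and 10.6 CPM at day 90 and 0 and 0.975 CPM in sham (4.2 ± 1.26, adjusted p = 0.065), and it was called in 4 of the 14 and 3 of the 11. Abcg1, a sterol exporter, had 146 and 166 CPM at day 90 and 70.9 and 24.6 CPM in sham. Against day 7 edgeR called none of the 23 targets, 4 were higher and 3 lower at an unadjusted p under 0.05, and DESeq2 called 3 higher and 2 lower. Over all genes DESeq2 called 207 against day 7.

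Scavenger receptors and fatty acid uptake genes gave 8 higher of 24 at day 90 against sham, none lower, 7 of them besides Cd36, with a median of 1.84. Cxcl16, a scavenger receptor that is also a chemokine, had 708 and 731 CPM at day 90 and 3.58 and 4.93 CPM in sham (7.40 ± 0.65, edgeR adjusted p = 0.000218). Cd5l, a secreted macrophage lipid regulator, had 166 and 121 CPM at day 90 and 0.364 and 0.772 CPM in sham (7.91 ± 1.53, adjusted p = 0.0138). Stab2, a clearance receptor for hyaluronan, had 2731 counts at day 90 and none in sham, and was at least 388-fold higher against a floor of 3 counts over the sham group (adjusted p = 0.0144). Msr1, the class A scavenger receptor, had 237 and 209 CPM at day 90 and 117 and 114 CPM in sham and was not called (0.95 ± 0.53, adjusted p = 0.272).

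Of 18 signalling partners and ligands of CD36, Cd36 included, 5 rose and 1 fell at day 90 against sham, with a median of 0.58. Mfge8, a secreted bridge between dying cells and phagocyte integrins, had 914 and 1025 CPM at day 90, 85.8 and 81.1 CPM at day 7 and 12.6 and 15.7 CPM in sham. It rose against sham (6.10 ± 0.50, edgeR adjusted p = 0.000218) and against day 7 (3.54 ± 0.44, adjusted p = 0.00964). With Mmp12 it was the only gene of the 6 lists called against day 7 by edgeR. The call against day 7 was lost without day 7 replicate 1 (adjusted p = 0.23), day 7 replicate 2 (0.227) or day 90 replicate 2 (0.061). The kinase gene Src (3.84 ± 1.04, adjusted p = 0.0446) and the tetraspanin gene Cd81 (3.34 ± 0.89, adjusted p = 0.0409) also rose against sham.

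Of 24 matrix metalloproteinase and inhibitor genes tested, 4 rose and none fell at day 90 against sham, beside 5.12% and 2.73% of all genes, with a median of 2.42, or 2.38 without Mmp12. DESeq2, which called 2616 of the 13861 genes in either direction, called 10 higher and 1 lower. The phagocyte scaling left 2 higher, Mmp12 and Mmp14. Mmp14, a membrane-anchored collagenase, had 273 and 280.4 CPM at day 90, 352 and 391 CPM at day 7 and 0.667 and 2.95 CPM in sham (7.22 ± 0.70 against sham, edgeR adjusted p = 0.000281). Against day 7 the Mmp14 value of -0.42 ± 0.53 was not called (adjusted p = 1), and its difference from that of Mmp12 was not tested. Mmp13, another collagenase, had 4.76 and 4.31 CPM at day 90 and 0.364 and 0.250 CPM in sham (3.92 ± 1.04, adjusted p = 0.0408). Mmp27 had 8.98 and 11.6 CPM at day 90 and 0.424 and 0.499 CPM in sham (4.46 ± 1.22, adjusted p = 0.0454). Mmp9, a gelatinase also on the neutrophil list, had 173 and 202 CPM at day 90 and 4775 and 3964 CPM in sham and was not called (-4.54 ± 1.34, adjusted p = 0.0594). Timp2, an inhibitor, had 1162 and 942 CPM at day 90 and 209 and 195 CPM in sham, also not called (2.38 ± 0.91, adjusted p = 0.127).

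Of 13 genes of elastic fibres and of other MMP12 substrates, 1 rose and 2 fell at day 90 against sham, beside 5.12% and 2.73% of all genes, with a median of 0.06. The 2 lower calls were lost with upper-quartile scaling, with total counts only and with the phagocyte scaling, which left no call of either direction. Lamc1, a laminin chain, rose (2.80 ± 0.67, edgeR adjusted p = 0.0295), while Fn1, fibronectin (-3.19 ± 0.87, adjusted p = 0.0454), and Plaur, the urokinase receptor (-1.80 ± 0.50, adjusted p = 0.0468), fell. Eln, elastin, had 0.716 and 0.270 CPM at day 90 and 0 and 2.81 CPM in sham, and was not called (adjusted p = 0.572). Many of these calls against sham were lost in fits without 1 library, also where that library was in neither group compared. Their log2 fold changes kept their direction in all 14 such fits. Those of Lpl ranged from 5.29 to 5.49, of Cd81 from 3.28 to 3.48, of Pltp from 3.78 to 5.21 and of Fn1 from -3.67 to -2.41. Without 1 sham library those of Nr1h3, Lpl, Pltp, Stab2, Cd5l, Src, Cd81, Mmp13, Mmp27, Lamc1, Fn1 and Plaur were lost (edgeR adjusted p between 0.0531 and 0.213), that of Lpl only without sham replicate 2. Without 1 day 90 library those of Pltp, Stab2, Src, Cd81, Mmp13, Mmp27, Lamc1, Fn1 and Plaur were lost (0.0514 to 0.27). Without 1 day 60 library those of Src, Cd81, Mmp13, Mmp27, Fn1 and Plaur were lost (0.0614 to 0.0759), without 1 day 7 library the same genes but Cd81 (0.052 to 0.0701), and without 1 day 3 library Mmp27 (0.0536). Those of Abca1, Cxcl16, Mfge8 and Mmp14 passed without any 1 of the 14 libraries. Against day 7 edgeR called none of the 13 genes of elastic fibres and substrates, 1 was lower at an unadjusted p under 0.05, and DESeq2 called 1 lower. Over all genes DESeq2 called 207 against day 7.

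**Figure D5:**
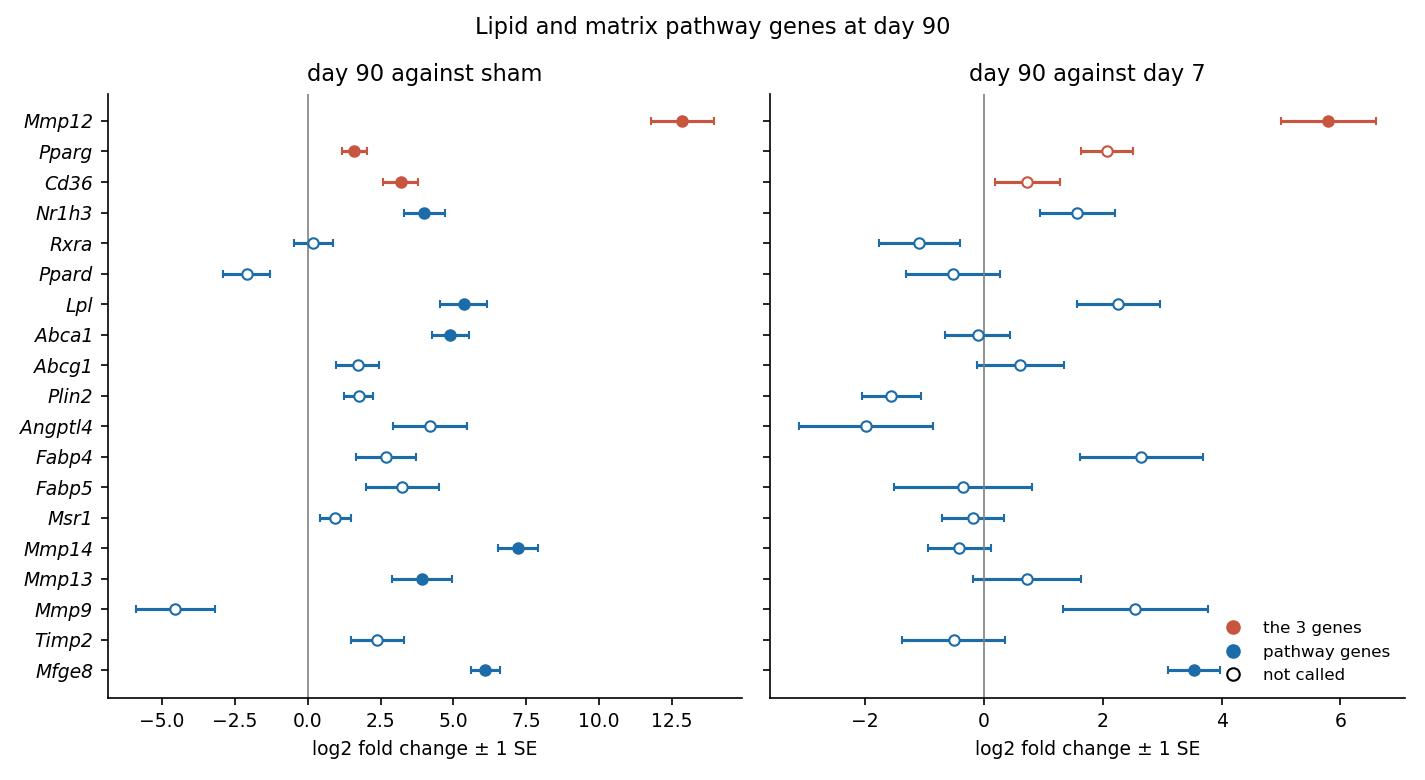
Log2 fold change with ± 1 SE of Mmp12, Pparg and Cd36 and of 16 genes of PPAR signalling, lipid handling, phagocytosis and matrix turnover, at day 90 against sham and at day 90 against day 7, filled where edgeR's adjusted p was under 0.05. Against day 7 Mmp12, at 5.80, and Mfge8, at 3.54, are the filled points.

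At the early times the 6 lists gave the following counts against sham, beside 3.18% of all genes higher and 1.37% lower at day 1, 5.2% and 3.07% at day 3, and 7% and 5.63% at day 7. Of 23 PPAR targets 5 rose at day 1, 5 at day 3 and 6 at day 7, with none lower by edgeR or DESeq2. Abca1, Angptl4 and Plin2 were among them at each time, and Cd36 and Lpl at day 7. Of 19 receptors and coregulators Nr1h3 rose at each time, and Ncor1, a corepressor, fell at days 3 and 7. DESeq2 called 3, 5 and 4 of these 19 lower at the 3 times, and the phagocyte scaling left none called in either direction. Over all genes DESeq2 called 1878, 2667 and 3158 in either direction at these times. Of 24 scavenger and uptake genes 3 rose at day 1, 6 at day 3 and 8 at day 7, and Acsl1, a fatty acid activating enzyme, fell at each, a call lost with the phagocyte scaling. Of 18 partners and ligands of CD36, 1 rose at day 1, 2 at day 3 and 5 at day 7, where 1 fell. Of 24 metalloproteinase and inhibitor genes 4 rose at day 1, 3 at day 3 and 3 at day 7, Mmp12 and Mmp14 at each time, while 1 fell at day 3 and 3 fell at day 7. Of 13 elastic fibre and substrate genes 1 rose at day 1, 1 at day 3 and 2 at day 7, where 1 fell.

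Genes with the most similar course were sought among the 7601 genes whose log2 CPM averaged 3 or more. Likeness was the lower of 2 Pearson correlations over the 7 groups, 1 in the replicate 1 libraries and 1 in the replicate 2 libraries, which share their groups and whose replicate numbers differ in depth. It is a description. For Mmp12 the 6 most alike were Il7r (0.942), Cd200 (0.924), Vcam1 (0.92), Anpep (0.915), Rad50 (0.915) and Gabarapl1 (0.914). Vcam1, an adhesion molecule, had 117 and 91.5 CPM at day 90, 10.0 and 12.8 CPM at day 7 and 0.121 and 0.808 CPM in sham. Il7r, the interleukin 7 receptor, had 178 and 132 CPM at day 90, 57.8 and 22.2 CPM at day 7 and 0.728 and 0.511 CPM in sham.

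For Pparg they were Clec12a (0.948), Rab10 (0.948), Tspan17 (0.908), Ube3a (0.883), Slc30a1 (0.882) and Asb3 (0.881). Clec12a, a myeloid inhibitory lectin that is also on the border-associated macrophage list, had 514 and 570 CPM at day 90, 72.6 and 23.5 CPM at day 21 and 228 and 379 CPM in sham. For Cd36 they were Lmna (0.864), Osbpl8 (0.863), Mtss1 (0.841), Dars (0.839), Serpinb8 (0.833) and Naa50 (0.826). Lmna, which encodes lamin A and C, had 282 and 328 CPM at day 90, 37.3 and 31.6 CPM at day 21 and 30.9 and 39.9 CPM in sham. The order depended on the measure. By 1 correlation over all 14 libraries Gabarapl1 ranked 43 for Mmp12, Rab10 ranked 79 for Pparg, and Dars 64 and Naa50 169 for Cd36. Vcam1, Clec12a and Mtss1 then ranked 1 for Mmp12, Pparg and Cd36.

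None of the 3 genes was among the 6 most alike to another. Pparg and Cd36 correlated at 0.687 in replicate 1 and 0.77 in replicate 2, and 47 of the 7601 genes were more alike to Cd36 than Pparg was. Mmp12 correlated with Pparg at 0.641 and 0.499 and with Cd36 at 0.565 and 0.571. The 3 genes were picked for a shared rise, which is part of each of these values.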

How the data were processed

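RNA-seq of sorted microglia was deposited as raw read counts per gene, 14084 genes in 14 libraries, and the values of all 14 single-library files equal those of the joint table. Per the submitters' processing notes Bowtie2 2.3.4.2, HTSeq 0.6.1 and build mm9 were used by the authors; no source used here gives the annotation or the strand setting. Groups came from the sample labels. The members and gene lists were chosen with earlier results of these data known.

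From the deposited counts, 13861 genes passed edgeR's filterByExpr and 223 did not. All 14 libraries were fitted together in R 4.3.3 with edgeR 4.0.16 (TMM factors, robust quasi-likelihood test, group as the only term, 7 residual degrees of freedom, common biological coefficient of variation 0.639). P-values were adjusted by Benjamini-Hochberg over all genes tested, with calls at an adjusted p under 0.05. The fit was tested on simulated data. Log2 CPM used a prior count of 2. Alternatives used DESeq2 1.42.0, limma 3.58.1 (voom), other scalings, no filter, a replicate block, thinned counts and leaving out libraries. A count of 3 equals 0.104 to 0.197 CPM in replicate 1 and 0.0157 to 0.0298 CPM in replicate 2 libraries. Named genes were the 3 members, up to 3 called genes of largest change per list in the 2 day 90 comparisons, a panel of pathway genes and the 6 genes most alike to each member.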

Additional observations from a re-analysis of the deposited data

Results flagged for a closer look

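The effect of stroke on Mmp12 against sham was 5.80 log2 units larger at day 90 than at day 7. The test of that difference is the comparison of day 90 with day 7 (edgeR adjusted p = 0.0186). Mmp12 was higher at day 90 in both replicate numbers. It was picked on its rise from day 21 to day 60, and its log2 fold change was -0.07 for day 90 against day 60 and -0.15 for day 21 against day 7. The flagged test thus lies close to the contrast that chose the gene.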

How the results depend on the processing

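Mmp12 stayed called against sham at all 4 times under every alternative run. Its log2 fold change without 1 library ranged from 6.31 to 7.99 at day 1, 5.93 to 7.24 at day 3, 6.30 to 7.98 at day 7 and 12.50 to 13.78 at day 90, and from 5.31 to 6.56 at day 90 against day 7. Pparg ranged from -1.58 to -0.78, -1.64 to -1.09, -0.56 to -0.32, 1.54 to 1.75 and 2.02 to 2.18 in the same 5 comparisons, and Cd36 from 1.45 to 2.17, -0.01 to 1.42, 2.03 to 2.89, 2.95 to 3.62 and 0.38 to 1.17. Genes called ranged from 76 to 1098, 225 to 1815, 355 to 2457, 129 to 1800 and 0 to 30. The 0 calls arose without either day 7 library.

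In the same order, 195, 362, 703, 378 and 0 genes were called with scaling by the mononuclear phagocyte list, 1878, 2667, 3158, 2616 and 207 by DESeq2, against 631, 1147, 1751, 1089 and 11 as reported. Fits of only the groups compared called 2620 genes at day 90 against sham and 42 against day 7, where limma-voom called 28. DESeq2 called Cd36 at day 1 (1.73), Pparg at day 3 (-1.40) and Pparg at day 90 against day 7 (2.08), and limma-voom called Pparg at day 3 (-1.49). With the phagocyte scaling Cd36 at day 7 (2.56), Pparg at day 90 against sham (1.43) and Mmp12 at day 90 against day 7 (5.74) lost their calls. Within the libraries numbered 1, Mmp12 at day 7 stood at 7.04, and within those numbered 2, Pparg at day 90 against day 7 stood at 2.06. With sham left out, a choice made after seeing the data, 12 genes were called at day 90 against day 7. The cause of these changes was not tested.

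Replicate 1's deviation from its group mean was correlated between groups over genes, giving 21 values from 0.071 to 0.677 (median 0.374). All were positive, so libraries of 1 replicate number shared a difference from those of the other. As 1 value lay under 0.1, the numbers were not taken as a pairing. That shared difference therefore stayed in the spread of the reported fit. The replicate block called 1195, 2002, 2766, 2006 and 17 genes, and called Pparg at day 3 (-1.38).

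Directions turned for genes that were not called. Rxra at day 90 against sham stood at -0.15 with the phagocyte scaling. Against day 7, Plaur stood at 0.00 with upper-quartile scaling and 0.16 with total counts only, and Abca1 at 0.04 with total counts only. Without 1 library, Rxra ranged from -0.51 to 1.69 and Eln from -2.46 to 8.28 against sham. Against day 7 Abca1 ranged from -0.51 to 0.43, Cd81 from -0.26 to 1.30, Plaur from -0.24 to 0.16, Ppargc1b from -0.17 to 0.80, Fabp5 from -1.18 to 0.40 and Msr1 from -0.52 to 0.23.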
